A study of Mus musculus with 12 samples.

Results

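The carboxylesterase genes of mouse liver were followed here through 10 of their members, Ces1c, Ces1d, Ces1e, Ces1f, Ces1g, Ces2a, Ces2c, Ces2e, Ces3a and Ces3b. The members were taken by their gene symbols from a table of 24421 genes counted by poly(A) RNA sequencing, and all 10 were found and passed the filter on low counts. The 12 libraries were 6 non-tumoral livers and 6 liver tumors from aged mice of C57BL/6J N background on a standard diet. In p21+/Tert mice the telomerase gene Tert was expressed from the Cdkn1a (p21) promoter, and in p21+/TertCi mice a catalytically inactive Tert was expressed from the same promoter, so that expression was directed to cells in which p21 was active. The p21+/Tert group held 4 livers and 4 tumors (T-HCA992, T-HCC663, T-HCC662 and T-HCC941), and the p21+/TertCi group held 2 livers and 2 tumors (TCi-HCC981 and TCi-HCA984). Every mouse sampled carried a Tert or TertCi allele and every liver came from a mouse with a tumor, and wild-type livers were not analysed here. By the mutations the study assigned to each tumor, T-HCC662 and T-HCC663 were mutated in Ctnnb1 (β-catenin), T-HCC941 in Egfr and TCi-HCC981 in Hras. T-HCA992 and TCi-HCA984 carried none of these drivers and are called driver-negative below. That name refers to Ctnnb1, Egfr and Hras only. Among other mutations, the study reported Ppp1r9a and PtprE frameshifts in T-HCA992, with a signature of MAPK activation, and an Ep300 mutation in TCi-HCA984. Both Ctnnb1-mutated tumors were p21+/Tert, so their driver class and their genotype were not crossed. The study's histology listed T-HCC662, T-HCC941 and TCi-HCC981 as hepatocellular carcinomas and T-HCA992 and TCi-HCA984 as hepatocellular adenomas. T-HCC663, named a carcinoma, was also listed as an adenoma. The driver-negative class thus held adenomas only, and its driver status and its histology cannot be told apart here. Livers are named NT with their animal number. The liver NT961, whose number no tumor bears, was taken by elimination as coming from the mouse of T-HCC662.

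Carboxylesterases are serine hydrolases of the endoplasmic reticulum that split esters, amides and thioesters, and they are among the most abundant drug-metabolizing enzymes of the hepatocyte. Enzymes of the Ces1 group prefer esters with a large acyl part and those of the Ces2 group esters with a large alcohol part, and several members also hydrolyse stored triacylglycerol or retinyl esters, which ties the family to lipid droplets and to the assembly of very low-density lipoprotein. In the mouse the family has expanded by repeated gene duplication, so that what is a small number of genes in humans is a long row of neighbouring copies.

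All 10 members lay on chromosome 8 of the GRCm38 build as protein-coding genes, in 2 clusters. The Ces1 members occupied a stretch of 238294 bp on the minus strand, with Ces1c at chr8:93099015-93131283, Ces1d at chr8:93166068-93197838, Ces1e at chr8:93201218-93229619, Ces1f at chr8:93256236-93279747 and Ces1g at chr8:93302369-93337308. The Ces2 and Ces3 members shared a stretch of 359927 bp on the plus strand, with Ces2a at chr8:104734003-104741634, Ces2c at chr8:104847068-104854483, Ces2e at chr8:104926260-104934672, Ces3a at chr8:105048601-105058413 and Ces3b at chr8:105083753-105093929. The 250 bases before the annotated RefSeq start (GRCm38.p6) are printed 5′ to 3′ for the 4 members that differed between tumors and livers by the test described below, since 2 of them, Ces2a and Ces2e, lie in the same cluster and moved in opposite directions. In Ces2a (chr8:104733753-104734002, plus strand) and Ces2e (chr8:104926010-104926259, plus strand) capitals mark the runs of at least 12 bases that are identical in both windows. In Ces3b (chr8:105083505-105083754, plus strand) they mark a match to the HNF1-type motif GTTAAT and, nearer the start, a TATA box (TATAAA), and Ces1e (chr8:93229620-93229869, minus strand) held no match to a motif searched.
Ces2a: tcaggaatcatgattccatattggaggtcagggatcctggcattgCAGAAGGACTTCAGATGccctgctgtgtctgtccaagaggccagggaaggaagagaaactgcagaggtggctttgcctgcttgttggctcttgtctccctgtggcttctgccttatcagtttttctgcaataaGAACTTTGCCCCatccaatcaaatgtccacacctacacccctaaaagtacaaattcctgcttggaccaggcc
Ces2e: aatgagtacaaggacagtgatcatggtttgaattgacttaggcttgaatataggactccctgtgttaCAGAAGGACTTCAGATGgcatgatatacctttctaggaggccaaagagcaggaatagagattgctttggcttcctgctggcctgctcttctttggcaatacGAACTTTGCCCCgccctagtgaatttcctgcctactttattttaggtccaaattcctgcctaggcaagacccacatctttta
Ces3b: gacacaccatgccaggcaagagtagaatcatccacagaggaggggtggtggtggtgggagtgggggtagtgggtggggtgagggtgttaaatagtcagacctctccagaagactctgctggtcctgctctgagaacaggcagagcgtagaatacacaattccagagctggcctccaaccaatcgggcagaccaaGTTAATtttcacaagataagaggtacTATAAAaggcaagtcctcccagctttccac
Ces1e: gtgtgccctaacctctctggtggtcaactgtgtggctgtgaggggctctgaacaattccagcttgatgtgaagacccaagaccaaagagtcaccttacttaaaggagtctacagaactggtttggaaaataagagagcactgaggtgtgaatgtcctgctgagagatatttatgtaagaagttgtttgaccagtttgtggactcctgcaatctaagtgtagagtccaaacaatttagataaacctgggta

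The windows of Ces2a and Ces2e shared a run of 17 bases and a run of 12 bases, and no other pair among the 7 members with a RefSeq window (Ces1c, Ces1e, Ces1g, Ces2a, Ces2c, Ces2e and Ces3b) shared a run of 12 or more. Of the 6 motifs searched on both strands, TATAAA was present in the windows of Ces1g and Ces3b and in 12.4% of all 32851 RefSeq windows. GTTAAT was present in that of Ces3b and in 6.43% of all windows. The nuclear receptor motif AGGTCA was present in that of Ces2a, where it was left in lower case, and in 14.0% of all windows. The HNF4 motif CAAAGTCCA (0.384% of all windows), the TCF/LEF motif CTTTGAT (3.21%) and the antioxidant response motif TGACNNNGC (10.2%) had no match in these 7 windows. GC content was 44% in Ces1e, 49.6% in Ces2a, 44.4% in Ces2e and 52% in Ces3b, beside a median of 52.4% over all windows. A match describes the letters only, and no binding was measured.

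The members were close copies within a subfamily, which bears on how their reads could be assigned. Aligned over their longest coding transcripts, the 14 pairs within a subfamily were 73.3% to 95.4% identical and the 31 pairs between subfamilies 59.8% to 66.6%. Ces3a and Ces3b were the closest pair, at 95.4%. Of all stretches of 150 bases, the read length, 2.37% of those of Ces3a were also present letter for letter in another gene (Ces3b), and 2.00% of those of Ces3b (in Ces3a). The figures were 4.03% for Ces2a and 3.35% for Ces2c, in both cases with pseudogenes, and 0% for the other 6 members. Of stretches of 50 bases, 42.2% of those of Ces2c, 30.9% of those of Ces3a, 26.1% of those of Ces3b and 22.2% of those of Ces2a occurred elsewhere. So did 17.0% of those of Ces1c, which was 91.1% identical to the non-member Ces1b, and at most 3.36% of those of any other member. How reads with several matches were treated is not given in the sources used here. Levels of Ces1c, Ces2a, Ces2c, Ces3a and Ces3b are therefore uncertain by the part of their reads that such copies could take or give.

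Counted reads ranged from 14571716 to 26170661 per library, and 3 counts corresponded to 0.107 to 0.228 CPM (counts scaled to the library total), well below the level of every member in every library. Levels are given as CPM scaled with edgeR's trimmed mean of M values (TMM). The summed level of 6 hepatocyte markers was 29787 to 54369 CPM in livers, 15693 and 31802 CPM in the Ctnnb1-mutated tumors and 64718 to 94354 CPM in the other 4 tumors. The higher sums were carried by Alb, at 47664 to 72143 CPM in those 4 tumors against 9546 to 31957 CPM in livers, whereas Serpina1c was at 1797 to 3973 CPM in them and at 3614 to 6280 CPM in livers. A sum of 6 pericentral hepatocyte markers, which are targets of β-catenin signalling in liver, was 6413 to 10325 CPM in livers, 20550 CPM in T-HCC663, 24731 CPM in T-HCC662 and 488 to 2595 CPM in the other tumors. A sum of 6 periportal markers was 3700 to 7096 CPM in livers and 300 to 3140 CPM in tumors. A sum of 5 cholangiocyte markers was 50.9 to 134 CPM in livers, 17.8 and 35.5 CPM in the Ctnnb1-mutated tumors and 60.8 to 1064 CPM in the others, where it was mostly Spp1 or Sox9, with Krt7, Krt19 and Epcam each under 3 CPM in every library. These are bulk libraries, in which fewer cells of a type and less RNA per cell cannot be told apart. Replicates were separate mice of a group, and the p-values measure the spread between these mice only.

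In non-tumoral liver the family was dominated by Ces1c and Ces3a. Per kilobase of exon, the only scale on which genes are compared with each other here, Ces1c had a median of 819 CPM per kb over 6 livers and Ces3a 804, followed by Ces3b at 182, Ces1d at 155, Ces1f at 134, Ces2a at 129.6, Ces1e at 85.3, Ces1g at 63.1, Ces2e at 52.1 and Ces2c at 5.29 CPM per kb. Ces1c encodes the carboxylesterase that mouse liver secretes into plasma, and Ces3a a liver esterase also named ES-male for its higher level in males. Of the summed per-kilobase level of all 10 members, Ces3a made up a median of 35.6% over the livers and Ces1c one of 33.1%. Within a library TPM and CPM per kilobase differ by a constant factor, so these shares are the same on either scale by construction.

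The 10 members together took 0.242% to 0.795% of counted reads in livers, with a median of 0.615%, and 0.176% to 0.532% in tumors, with a median of 0.293%. The Ctnnb1-mutated tumors had the highest shares among tumors, 0.532% in T-HCC662 and 0.490% in T-HCC663, against 0.342% in T-HCA992, 0.243% in TCi-HCC981, 0.178% in TCi-HCA984 and 0.176% in T-HCC941. NT984 (p21+/TertCi) had the lowest share of the livers, 0.242%, and the other 5 livers held 0.522% or more, so the ranges of livers and tumors overlapped through that liver and through T-HCC662. The part carried by Ces3a and Ces3b was 0.109% to 0.409% in livers and 0.0184% to 0.211% in tumors, and the part carried by the 3 Ces2 members was 0.0246% to 0.0638% in livers and 0.0373% to 0.0792% in tumors. These shares carry no test.

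**Figure D1:**
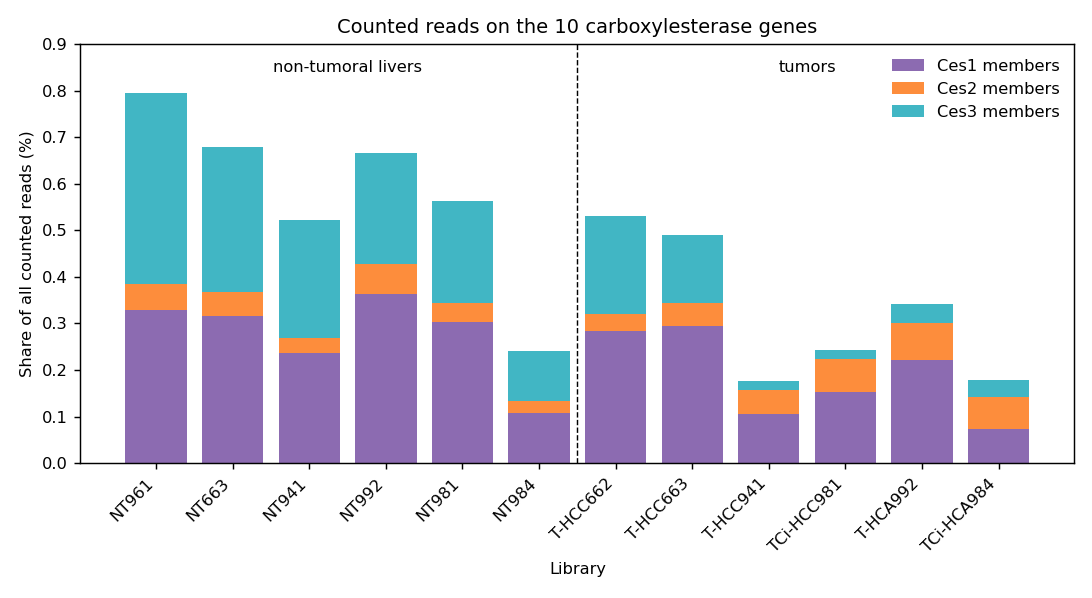
Share of all counted reads (%, y axis) that fell on the 10 carboxylesterase genes in each library (x axis), stacked by subfamily, with 6 non-tumoral livers left of the dashed line and 6 tumors right of it. The Ces3 portion is smallest in T-HCC941 and TCi-HCC981, at 0.0184% and 0.0188% (together with Ces1 and Ces2 0.176% and 0.243%). The Ces2 portion spans 0.0246% to 0.0638% in livers and 0.0373% to 0.0792% in tumors.

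The first comparison asked how the members differed between tumors and non-tumoral livers. Ces3b, Ces2a and Ces1e were lower in tumors and Ces2e was higher. Those were 4 of 10 members at an adjusted p under 0.05 (edgeR quasi-likelihood test with Benjamini-Hochberg adjustment over 13822 genes), where 10.7% of all genes tested were called, 3.91% lower and 6.77% higher. The median log2 fold change of the members was -1.02, and that of all genes 0.01. With the mouse as a block in the model, 8 members and 2202 of the 13822 genes were called. That block rests on the assignment of NT961 by elimination. With the 5 pairs whose labels share a number 6 members, without Ces1f and Ces2c, and 1860 of 13916 genes were called.

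Ces3b, a close copy of Ces3a, had the largest fold change. Its level was 241 CPM in the lowest liver, 466 in the median and 1191 in the highest. It was 24.8 CPM in T-HCC663, 36.0 in T-HCC662, 67.4 in T-HCC941, 32.03 in T-HCA992, 4.73 in TCi-HCC981 and 73.4 in TCi-HCA984. Every tumor thus lay below every liver, and Ces3b was the only member whose tumors and livers did not overlap (5.11% of all genes tested did not overlap, with tumors below in 2.18% and above in 2.93%). Its log2 fold change was -3.81 ± 0.60 (SE, n = 6 tumors and 6 livers, edgeR adjusted p = 0.00235). Against the liver of the same mouse Ces3b was 73.6-fold lower in TCi-HCC981, 33.1-fold in T-HCC662, 23.0-fold in T-HCC663, 11.4-fold in T-HCA992, 8.93-fold in T-HCC941 and 3.28-fold in TCi-HCA984.

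Ces2a, a Ces2-type esterase, had 106 CPM in the lowest liver, 306 in the median and 467 in the highest. The tumors had 125 CPM (T-HCC663), 137 (T-HCC662), 107 (T-HCC941), 62.6 (TCi-HCC981), 66.1 (T-HCA992) and 64.5 (TCi-HCA984). Only the liver NT984 reached into the range of the tumors, and the next lowest liver had 244 CPM. The log2 fold change was -1.74 ± 0.34 (SE, n = 6 and 6, edgeR adjusted p = 0.00701).

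Ces1e, also named egasyn for its binding of β-glucuronidase in the endoplasmic reticulum, had 69.6 CPM in the lowest liver, 187 in the median and 299.97 in the highest. In tumors it had 88.1 CPM in T-HCC663, 48.5 in T-HCC662, 15.2 in T-HCC941, 59.9 in T-HCA992, 16.2 in TCi-HCC981 and 24.4 in TCi-HCA984. T-HCC663 alone lay above the lowest liver. The log2 fold change was -2.16 ± 0.50 (SE, n = 6 and 6, edgeR adjusted p = 0.0166), and each tumor was 2.85-fold to 9.20-fold below the liver of its own mouse.

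Ces2e, another Ces2-type esterase, moved the other way. It had 96.3 CPM in the lowest liver, 141 in the median and 253 in the highest, against 219 in T-HCC663, 148 in T-HCC662, 347 in T-HCC941, 649.9 in T-HCA992, 573 in TCi-HCC981 and 658 in TCi-HCA984. The Ctnnb1-mutated tumors lay within the range of the livers and the other 4 tumors above it. A sum of 4 intestinal markers was 73.0 to 209 CPM in livers and 57.5 to 475 CPM in tumors, with the defining intestinal factor Cdx1 at 0 in every library. Of these markers Vil1 was higher in tumors (5.84 on the log2 scale, edgeR adjusted p = 0.0125), and Fabp2 (0.67, adjusted p = 0.471) and Lgals4 (0.42, adjusted p = 0.700) did not pass. Vil1 had up to 1.81 CPM in livers. In tumors it had 174 CPM in T-HCC941, 31.8 in T-HCC663, 19.1 in TCi-HCC981 and 4.51 in T-HCC662. In T-HCA992 and TCi-HCA984, the tumors with the most Ces2e, Vil1 had 2.11 and 0.738 CPM. The part of Vil1 in the level of Ces2e was not tested. The log2 fold change over all tumors was 1.51 ± 0.39 (SE, n = 6 and 6, edgeR adjusted p = 0.0263), and this call was lost when NT961 (adjusted p = 0.0576), NT663 (0.0615), NT941 (0.0607), T-HCA992 (0.0576) or TCi-HCC981 (0.0517) was left out. Its call was also lost without both NT984 and TCi-HCA984 (0.0656), whereas those of Ces1e, Ces2a and Ces3b held in each of the 12 fits that left out 1 library.

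**Figure D2:**
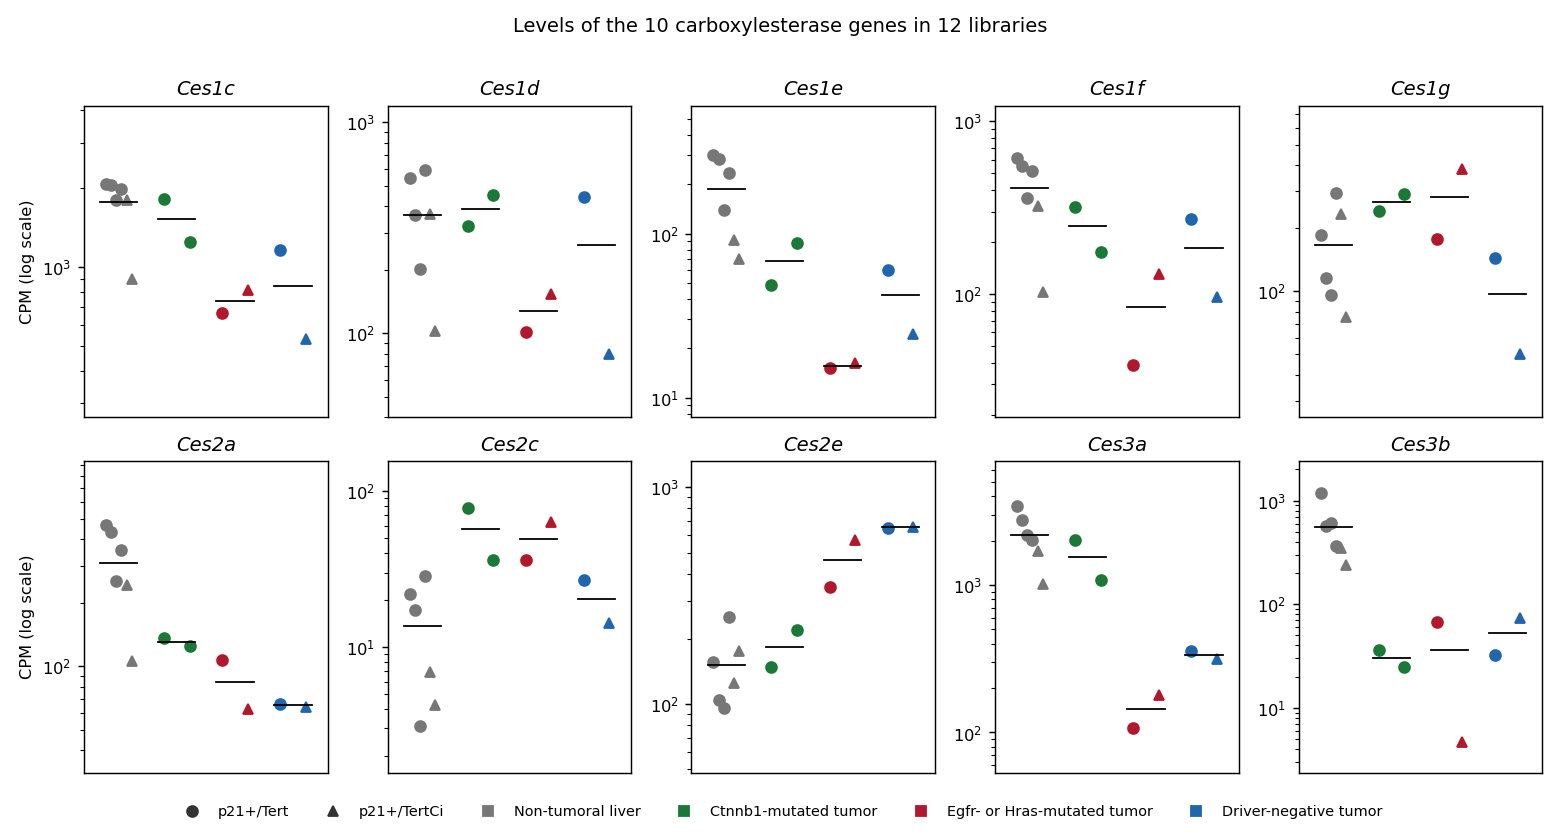
CPM (log scale, y axis) of each member in 6 non-tumoral livers (gray), 2 Ctnnb1-mutated (green), 2 Egfr- or Hras-mutated (red) and 2 driver-negative tumors (blue), with circles for p21+/Tert, triangles for p21+/TertCi and a black line at the mean of the group. For Ces3b all tumors lie under all livers, and for Ces2e the 4 tumors without a Ctnnb1 mutation lie above all livers, at 347 to 658 CPM.

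The other 6 members did not pass the threshold over all tumors. Ces3a had 1022 CPM in the lowest liver, 2112 in the median and 3442 in the highest, and 1087 in T-HCC663, 2016 in T-HCC662, 107 in T-HCC941, 358 in T-HCA992, 180.3 in TCi-HCC981 and 315 in TCi-HCA984. Both Ctnnb1-mutated tumors were thus within the range of the livers, and the other 4 were below it. Its log2 fold change was -1.71 ± 0.64 (SE, n = 6 and 6, edgeR adjusted p = 0.107), with an adjusted p of 0.0154 when T-HCC662 was left out and of 0.021 when the mouse entered as a block. Ces1c had 902 CPM in the lowest liver, 1902 in the median and 2072 in the highest, and 1247 in T-HCC663, 1819 in T-HCC662, 665 in T-HCC941, 1158 in T-HCA992, 820 in TCi-HCC981 and 529.9 in TCi-HCA984 (log2 fold change -0.78 ± 0.33 SE, n = 6 and 6, edgeR adjusted p = 0.15). Leaving the liver NT984 aside, T-HCC662 alone reached the range of the livers, and with the mouse as a block the adjusted p for Ces1c was 0.0429. Ces1f had 103 CPM in the lowest liver, 439 in the median and 613 in the highest, and 38.7 (T-HCC941) to 318 CPM (T-HCC662) in tumors (log2 fold change -1.27 ± 0.49 SE, n = 6 and 6, edgeR adjusted p = 0.117, or 0.0458 in the fit blocked by mouse and 0.0673 with the 5 labelled pairs).

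Ces1d, a triacylglycerol hydrolase that supplies lipid for very low-density lipoprotein, had 103 to 597 CPM in livers and 79.8 to 454 CPM in tumors, with a log2 fold change of -0.49 ± 0.50 (SE, n = 6 and 6, edgeR adjusted p = 0.576). The ranges of the groups nearly coincided. Ces1g, a lipid hydrolase known to limit fat accumulation in liver, had 75.7 to 295 CPM in livers and 49.98 to 383 CPM in tumors (0.35 ± 0.44 SE on the log2 scale, n = 6 and 6, edgeR adjusted p = 0.655). Ces2c, a triacylglycerol and diacylglycerol hydrolase, was the least abundant member in livers, with 3.11 CPM in the lowest, 12.1 in the median and 28.7 in the highest, and had 36.4 CPM in T-HCC663, 77.9 in T-HCC662, 36.0 in T-HCC941, 26.8 in T-HCA992, 63.5 in TCi-HCC981 and 14.2 in TCi-HCA984. Its log2 fold change was 1.63 ± 0.55 (SE, n = 6 and 6, edgeR adjusted p = 0.0752, or 0.0331 in the fit blocked by mouse and 0.0614 with the 5 labelled pairs).

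Set against the liver of the same mouse, 6 members were lower in 6 of 6 tumors, namely Ces1c, Ces1e, Ces1f, Ces2a, Ces3a and Ces3b, where 11.5% of all genes tested were lower in every pair. Ces1d was lower in 5 of 6 tumors. Ces2c and Ces2e were each higher in 5 of 6, where 25% of all genes were higher in 5 or more, and the exceptions were T-HCA992 for Ces2c and T-HCC662 for Ces2e. Ces1g was higher in 4 of 6 tumors and lower in both driver-negative ones. By tumor, the median ratio of the 10 members to their own liver was 0.392 in T-HCC941, 0.411 in TCi-HCC981, 0.489 in T-HCC663, 0.506 in T-HCA992, 0.588 in T-HCC662 and 0.633 in TCi-HCA984. For TCi-HCA984 the ratio stood on NT984, the lowest liver for most members.

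**Figure D3:**
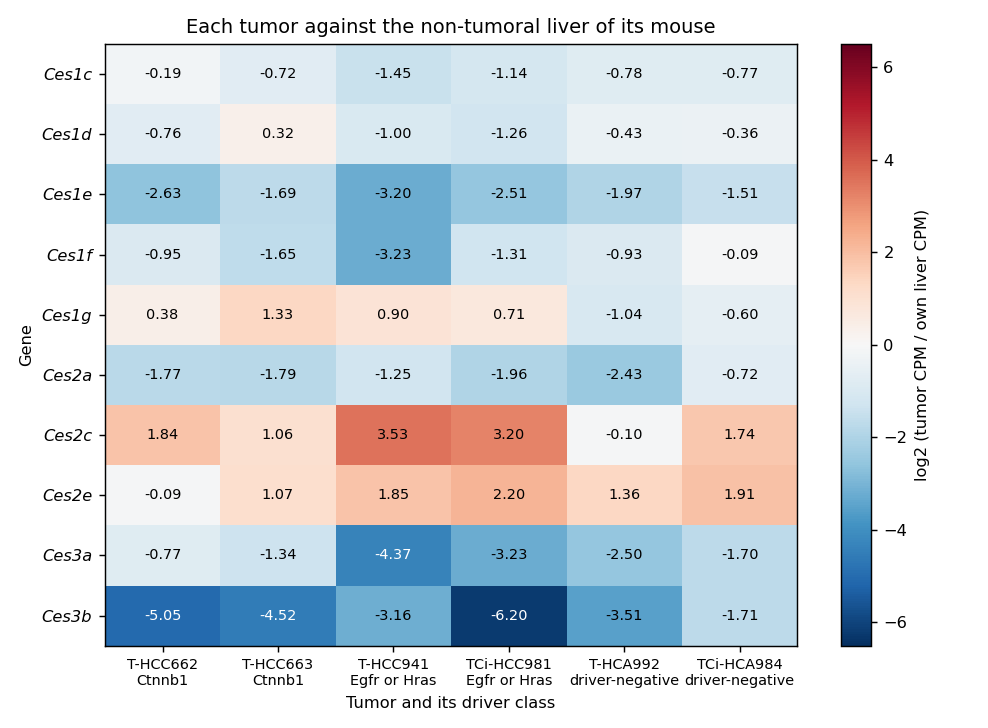
Log2 of the ratio of tumor CPM to the CPM of the liver of the same mouse (color and printed value) for the 10 members (y axis) in 6 tumors (x axis, with the driver class). Ces1c, Ces1e, Ces1f, Ces2a, Ces3a and Ces3b are below 0 in all 6 columns, and the Ces3a values run from -0.77 in T-HCC662 to -4.37 in T-HCC941.

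The driver classes were compared next, in a model of livers and 3 tumor classes over all 12 libraries, with 15182 genes tested and n = 2 tumors in each class. In the Ctnnb1-mutated tumors, Ces3b alone differed from livers, 1 of 10 members where 8.2% of all genes were called, 3.2% lower and 5% higher. Its log2 fold change was -4.21 ± 1.02 (SE, edgeR adjusted p = 0.0278), and the call was lost when T-HCC662 (adjusted p = 0.143) or T-HCC663 (0.184) was left out. Ces3a (-0.52, adjusted p = 0.533) and Ces2e (0.25, adjusted p = 0.726), the members that set these tumors apart from the others below, did not pass the test against livers, nor did Ces2c (2.05, adjusted p = 0.081). With the mouse as a block 2 members were called, Ces3b and Ces1e (-2.18, adjusted p = 0.0169), and 851 of 15182 genes, beside 1245 without it. The 5 labelled pairs left 1 tumor in this class.

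In the Egfr- or Hras-mutated tumors 6 of 10 members differed from livers, where 18.2% of all genes were called, 8.62% lower and 9.57% higher. The 5 that were lower were Ces3a (-3.96 ± 0.57 SE on the log2 scale, edgeR adjusted p = 0.000999), Ces3b (-3.97 ± 1.01, adjusted p = 0.0193), Ces1e (-3.60 ± 0.68, adjusted p = 0.00454), Ces1f (-2.30 ± 0.72, adjusted p = 0.0466) and Ces2a (-1.90 ± 0.49, adjusted p = 0.021), and Ces2e was higher (1.58 ± 0.34, adjusted p = 0.00881). Ces3a was 20.6-fold lower in T-HCC941 and 9.35-fold lower in TCi-HCC981 than in the matched liver, the widest gaps of the 6 tumors for this gene. The call for Ces1f was lost without NT961 (edgeR adjusted p = 0.0755), NT663 (0.0731), NT941 (0.0649), NT992 (0.0727), T-HCC662 (0.0529) or T-HCC663 (0.0557). Without T-HCC941, which leaves 1 tumor in this class, the log2 fold change was -1.68 for Ces1f and -2.33 for Ces2a. Without TCi-HCC981 the count fell to 1, with Ces3a still called and adjusted p-values of 0.0509 for Ces1e, 0.0647 for Ces1f, 0.18 for Ces2a, 0.134 for Ces2e and 0.074 for Ces3b. Ces3a kept its call in all 12 fits that left out 1 library, with adjusted p-values up to 0.0181.

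In the driver-negative tumors 3 of 10 members differed from livers, where 8.1% of all genes were called, 2.43% lower and 5.67% higher. Ces3a fell by 2.70 on the log2 scale (SE 0.52, edgeR adjusted p = 0.0103) and Ces2a by 2.24 (SE 0.50, adjusted p = 0.021), while Ces2e rose by 2.11 (SE 0.33, adjusted p = 0.00362). Ces1e (-2.15, adjusted p = 0.0541) and Ces3b (-3.39, adjusted p = 0.0537) lay just over the threshold. Once the mouse was made a block, none of the 10 was called, with adjusted p-values of 0.0694 for Ces3a, 0.113 for Ces2a and 0.0716 for Ces2e. Of all 15182 genes 237 were called with the block and 1230 without it.

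**Figure D4:**
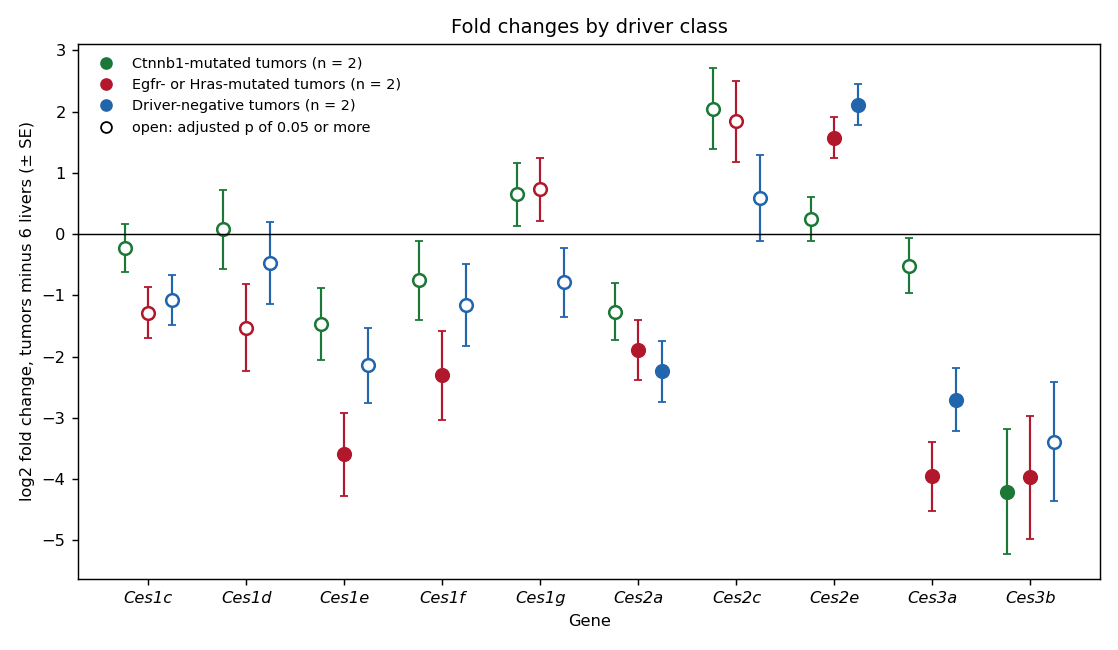
Log2 fold change against 6 livers (y axis, points with standard error bars) of each member (x axis) in the 3 tumor classes, n = 2 tumors each, with filled points for an edgeR adjusted p under 0.05. Ces3a and Ces2e stand near 0 in the Ctnnb1-mutated tumors (-0.52 and 0.25) and away from 0 in the other classes, and Ces3b stands between -3.39 and -4.21 in all of them.

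The difference between classes was tested directly by setting the Ctnnb1-mutated tumors against the mean of the other 2 classes, and 2 of 10 members differed, where 12.5% of all genes were called, 6.76% higher in the Ctnnb1-mutated tumors and 5.72% lower. Ces3a was higher in the Ctnnb1-mutated tumors, by 2.81 ± 0.45 on the log2 scale (SE, n = 2 and 4, edgeR adjusted p = 0.00362). Its level was 2016 and 1087 CPM there against 107 to 358 CPM in the other 4 tumors, and the call held in all 12 fits that left out 1 library, with adjusted p-values up to 0.0427. Ces2e was lower, by 1.59 on the log2 scale (log2 difference -1.59 ± 0.42 SE, n = 2 and 4, edgeR adjusted p = 0.0314), with 148 and 219 CPM against 347 to 658 CPM. The call for Ces2e was lost in 5 of the 12 fits that left out 1 library. Ces1c and Ces2a also had no overlap between the Ctnnb1-mutated and the other tumors, and so did 37.5% of all genes, with adjusted p-values of 0.134 for Ces1c and 0.248 for Ces2a. With the mouse as a block, where each tumor is set against its own liver, neither difference passed (Ces3a 1.89, adjusted p = 0.114, and Ces2e -1.34, adjusted p = 0.153). That block called 441 of 15182 genes, beside 1895 without it.

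The make-up of the family's RNA differed accordingly between the classes, as a description with no test. Shares of the summed per-kilobase level are medians over the libraries of a class. In the Ctnnb1-mutated tumors Ces1c held 36.6%, Ces3a 32.2% and Ces2e 4.00%. In the other 4 tumors Ces1c held 37.7%, Ces2e came second in rank with 20.5%, against 1.91% in livers, and Ces3a held 8.86%. Ces3b, at rank 3 in livers with 8.03%, held 0.657% in the Ctnnb1-mutated tumors, where it ranked last, and 2.40% in the other 4, where it was at rank 8. The hepatocyte, pericentral, periportal and cholangiocyte marker sums were split between the same tumors. So was that of 7 female-biased liver genes, at 1.58 to 3.20 CPM in the Ctnnb1-mutated tumors and 71.8 to 249 CPM in the others. Sums of 6 stellate cell and fibroblast markers (19.6 to 59.3 against 119 to 308 CPM) and 5 endothelial markers (35.0 to 85.7 against 86.7 to 196 CPM) were split too. That of 6 male-biased liver genes overlapped (604 to 1113 against 183 to 3713 CPM). The part of these sums in the levels of Ces3a and Ces2e was not tested.

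The Egfr- or Hras-mutated and the driver-negative tumors did not differ in any member or in any of 15182 genes by edgeR at an adjusted p under 0.05 (0%). At an unadjusted p under 0.05, 1331 genes and 2 members differed (Ces3a -1.26, adjusted p = 0.551, and Ces1g 1.51, adjusted p = 0.557), and DESeq2 called 105 genes. Each of these classes held 1 tumor of either genotype, and the first held carcinomas and the second adenomas.

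By genotype, the p21+/Tert tumors differed from p21+/Tert livers (n = 4 and 4) in 3 of 10 members, all lower, where 6.49% of all genes were called, 2.3% lower and 4.2% higher. Ces3b went from 681 ± 356 CPM (SD) in livers to 40.0 ± 18.8 CPM in tumors, a log2 fold change of -4.11 ± 0.74 (SE, edgeR adjusted p = 0.0113). Ces2a went from 377 ± 93.8 to 109 ± 30.9 CPM (-1.82 ± 0.32 SE, adjusted p = 0.0108), and Ces1e from 240 ± 72.5 to 52.9 ± 30.2 CPM (-2.19 ± 0.45 SE, adjusted p = 0.0199). The call for Ces1e was lost without NT961 (adjusted p = 0.0648) or NT663 (0.0573). Ces2e, at 153 ± 72.0 CPM in p21+/Tert livers and 341 ± 222 CPM in p21+/Tert tumors, did not pass (1.15, adjusted p = 0.162).

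In p21+/TertCi mice (n = 2 tumors and 2 livers) no gene was called by edgeR (0% of 15182), although 1618 genes and 6 members had an unadjusted p under 0.05, and DESeq2 called 375 genes. The log2 fold changes of these 6 members were -2.92 for Ces3b, -1.47 for Ces2a, -2.01 for Ces1e, -2.46 for Ces3a, 2.02 for Ces2e and 2.77 for Ces2c, with adjusted p-values of 0.322 to 0.437. DESeq2 called 2 of them, Ces3b (-2.92, adjusted p = 0.0431) and Ces2c (2.81, adjusted p = 0.049). The difference between the genotypes in the tumor effect was called for no gene by edgeR (0%), with 556 genes and 0 members at an unadjusted p under 0.05 and 10 genes called by DESeq2, and among members its size ran from -1.47 ± 1.06 (SE) for Ces2c to 0.90 ± 1.19 for Ces3a on the log2 scale.

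The livers of the genotypes were also compared, 4 p21+/Tert against 2 p21+/TertCi. No gene was called by edgeR (0%), with 756 genes at an unadjusted p under 0.05 and 42 called by DESeq2. The members' median difference was 1.01 on the log2 scale toward p21+/Tert, beside -0.02 for all genes, and the members with an unadjusted p under 0.05 were Ces1e (1.55 ± 0.57 SE, adjusted p = 0.93) and Ces2a (1.10 ± 0.40 SE, adjusted p = 0.93). Ces1e had 92.0 and 69.6 CPM in the p21+/TertCi livers and 139.5 to 299.97 CPM in the p21+/Tert livers. The genotypes' livers did not overlap for 6 of 10 members, Ces1c, Ces1e, Ces1f, Ces2a, Ces3a and Ces3b, nor for 16.1% of all genes tested. These differences rested in part on NT984: without it and TCi-HCA984 they were 1.36 for Ces1e, 0.61 for Ces2a, 0.64 for Ces1f, 0.19 for Ces1d, 0.12 for Ces1c and 0.61 for Ces3a on the log2 scale. Ces2e was nearly equal, at 153 ± 72.0 and 149.8 ± 35.7 CPM (SD). The summed level of 6 male-biased liver genes was 1178 and 3526 CPM in the p21+/TertCi livers, 4025 to 10712 CPM in the p21+/Tert livers and 183 to 3713 CPM in tumors. That of 7 female-biased liver genes was 28.5 and 248 CPM, 2.71 to 99.99 CPM and 1.58 to 249 CPM in the same order. In the livers of both genotypes Xist was at most 0.387 CPM and the Y-linked Ddx3y was 60.8 to 88.5 CPM, the pattern of male animals. The part of these sums in the levels of the members was not tested.

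Of the 10 further carboxylesterase genes listed, 9 were in the table and 5 passed the filter in the tumor comparison. Ces1b was lower in tumors (-1.98 ± 0.46 SE on the log2 scale, edgeR adjusted p = 0.0171), with 30.9 to 128 CPM in livers and 7.84 to 43.3 CPM in tumors. Ces2g did not pass over all tumors (0.98, adjusted p = 0.089), but was higher in the Egfr- or Hras-mutated class (1.21, adjusted p = 0.0372) and in the driver-negative class (1.36, adjusted p = 0.0392). Ces1a was near the limit of detection in livers (up to 0.967 CPM) and reached 1.402 CPM in T-HCC663 and 11.0 CPM in T-HCC662. It was called higher in the Ctnnb1-mutated than in the other tumors (edgeR adjusted p = 0.0214). It was 1 of 2 genes called higher in that comparison among the 7 of this list tested there, with 0 lower, where 6.76% and 5.72% of all genes were. Ces2b, Ces2h, Ces4a and the pseudogene Ces2d-ps stayed low, and Ces2f and Ces5a had 0 counts in every library.

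Genes that lie within 500 kb of the clusters were counted for comparison. Near the Ces1 cluster 2 of 7 neighbours were tested and none was called in tumors against livers. Near the Ces2 and Ces3 cluster 28 of 38 were tested and 4 were called, where 10.7% of all genes were. Cbfb was higher (0.76, edgeR adjusted p = 0.019) and Pdp2 (-1.07, adjusted p = 0.0383), Lrrc29 (-1.41, adjusted p = 0.0436) and D230025D16Rik (-0.62, adjusted p = 0.0439) were lower. In Ctnnb1-mutated against other tumors 3 of 30 tested there were called, where 12.5% of all genes were, and all 3 were higher in the Ctnnb1-mutated tumors, Nol3 (2.15, adjusted p = 0.024), Hsf4 (1.85, adjusted p = 0.0293) and 4931428F04Rik (1.34, adjusted p = 0.0402).

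Among 23 other lipid and ester hydrolases and their partners, 22 were tested, 3 rose in tumors and 2 fell, where 6.77% and 3.91% of all genes did. Those that rose were Pnpla3 (4.39 on the log2 scale, edgeR adjusted p = 0.0077), Lpl, the lipase of lipoprotein triacylglycerol (3.57, adjusted p = 0.0045), and Abhd5, the activator of adipose triglyceride lipase (1.41, adjusted p = 0.0299). Those that fell were Lipe, hormone-sensitive lipase (-0.70, adjusted p = 0.0282), and Lipc, hepatic lipase (-1.71, adjusted p = 0.0434). In the Egfr- or Hras-mutated class 3 rose and 10 fell, where 9.57% and 8.62% of all genes did. Of these hydrolases, 5 were higher in the Ctnnb1-mutated than in the other tumors and 1 was lower, where 6.76% and 5.72% of all genes were. The list's median fold change over all tumors was 0.02, beside 0.01 for all genes and -1.02 for the 10 members.

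None of 17 lipid droplet and lipoprotein assembly genes was called in tumors against livers, where 10.7% of all genes were. In the Ctnnb1-mutated tumors 5 were higher and 1 lower than in the other tumors, where 6.76% and 5.72% of all genes were. Of 13 nuclear receptors and other regulators of liver genes, 3 fell in tumors and none rose, where 3.91% and 6.77% of all genes did. Those that fell were Nr1h4, the bile acid receptor (-1.10, edgeR adjusted p = 0.0328), Klf15 (-1.11, adjusted p = 0.0332) and Cebpa (-0.80, adjusted p = 0.0241). Nr1i2, the xenobiotic receptor, was higher in the Ctnnb1-mutated than in the other tumors (1.204, adjusted p = 0.0221).

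Across all 12 libraries the members fell into a group that moved together and a few that did not, given as a description in which every point shares the split into livers and tumors. On the log2(CPM + 1) scale Pearson's r was 0.92 for Ces1c and Ces1f, 0.90 for Ces1e and Ces3a and 0.71 for the close copies Ces3a and Ces3b. It was -0.82 for Ces2e and Ces3a and -0.78 for Ces2e and Ces2a, which lie in the same cluster. Among 13382 genes with a mean of at least 1 CPM, the non-member most like Ces3a was Isoc2a (r = 0.99), that most like Ces2a was Mcee (0.98) and that most like Ces3b was Acbd4 (0.96). For Ces1e it was Slc22a30 (0.96) and for Ces2e Chst7 (0.96), while the best match of Ces2c, Eif4e2, reached 0.89.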

How the data were processed

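Total RNA of 6 non-tumoral livers and 6 liver tumors was made into poly(A) libraries and sequenced in pairs of 150-base reads. Per the study's methods and the submitters' processing notes, the authors aligned reads to the mm10 build with the mCherry sequence added, using Subread-align, and counted them per gene with featureCounts 1.6.4. The deposited values are raw, whole-number counts per gene, not normalized, 1 column per library. Strand setting and the handling of reads with several matches are not given in the sources used here.

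Counts were scaled with TMM and tested with edgeR 4.0.16 (quasi-likelihood test, filterByExpr) in R 4.3.3, with Benjamini-Hochberg adjustment over all genes tested and a threshold of 0.05. Tumors against livers were fitted with tissue alone (13822 genes). Genotype by tissue and driver class were fitted as 4 groups each over all 12 libraries (15182 genes), so that groups of 2 share the spread of the others. The study corrected for the sequencing run, which is not given per sample, so that term was not used and a run effect cannot be told apart from the groups here. Of 24421 symbols, 23336 matched GENCODE M21 on GRCm38, from which positions and exon lengths came. Promoter windows came from RefSeq on GRCm38.p6, and Ces1d, Ces1f and Ces3a had no window. Identity between members was measured by local alignment of the longest coding transcripts (biopython 1.88). Likeness between genes was Pearson's r of log2(CPM + 1).

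Library totals were 14571716 to 26170661 counts, and 3 counts were worth at most 0.228 CPM, below every value of a member. Animal numbers pair livers with tumors of the same mouse. The correlation of paired deviations from the group means over 13822 genes was 0.19 for T-HCC662 and NT961, 0.05 for the mouse of T-HCC663, 0.04 for that of T-HCC941, 0.44 for that of T-HCA992 and 0.55 for both p21+/TertCi mice, which as a group of 2 share 1 value. Alternatives were DESeq2 1.42.0, RLE size factors, no filter, each library left out in turn, the mouse as a block, and only the libraries compared, and a fit without the mouse of NT984 and TCi-HCA984 was added after its liver was seen to be the lowest for most members.

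The 10 members were given by symbol and are all named. Of the gene lists, members past the threshold in tumors against livers or in Ctnnb1-mutated against other tumors could be named, at most 6 per list, and all other carboxylesterase genes, as could neighbours within 500 kb that passed. The 3 genes most like each member were computed. Members and lists were chosen with earlier results of these data known. The main edgeR fit of each comparison was tested on simulated data first, and the alternative fits and the descriptive measures were not. Driver classes come from the study, not from the labels, and the study's further p21+/TertCi tumors and its wild-type liver neoplasm were not analysed here.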

Additional observations from a re-analysis of the deposited data

Results flagged for a closer look

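Among livers, Ces1c in the p21+/TertCi liver NT984 stood far from the others, with 902 CPM beside 1805 CPM in the next lowest of 6 livers, a gap that made up 0.772 of the whole range. It was the only such value in 40 groups of members and samples examined, and chance alone gives about 5% of groups. Without that liver the level of Ces1c was 1947 ± 129.98 CPM (SD, n = 5). NT984 was also the lowest of the 6 for Ces1d, Ces1e, Ces1f, Ces1g, Ces2a, Ces3a and Ces3b.

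Ces3a and Ces2e differed between tumor classes by a test of the difference itself. The log2 difference between Ctnnb1-mutated and other tumors was 2.81 for Ces3a and -1.59 for Ces2e (edgeR adjusted p = 0.00362 and 0.0314, n = 2 and 4). Both genes had no overlap between these tumors, and neither did 37.5% of all genes. With the mouse as a block neither difference passed (adjusted p = 0.114 for Ces3a and 0.153 for Ces2e), and Ces2e lost its call in 5 of the 12 fits that left out 1 library.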

How the results depend on the processing

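No member changed direction past the threshold in any comparison under any alternative. Of the recomputed values 1777 were counted as unchanged, 49 lost and 45 gained a call. Unchanged means only that no call was lost or gained, so a value called in neither fit counts even where its sign changed. For example, Ces1d in p21+/TertCi tumors ran from -1.67 to 0.152. In comparisons where the main fit called no gene, such as p21+/TertCi tumors against livers, all 120 leave-one-out values were unchanged. The count is therefore no measure of how stable the effects were. The unchanged values include shares of counts and of levels, which carry no threshold and stayed within their spread. The shares of levels are the same on both scales by construction. With the mouse as a replicate block over 6 pairs, the number of members called was 8 for tumors against livers (4 without the block), 2 for Ctnnb1-mutated tumors against livers (1 without), 0 for driver-negative tumors against livers (3 without) and 0 for Ctnnb1-mutated against other tumors (2 without). Over all genes the block called 2202, 851, 237 and 441 in these comparisons, beside 1476, 1245, 1230 and 1895 without it. With the 5 labelled pairs 1 member and 222 of 15804 genes were called in driver-negative tumors against livers, and the Ctnnb1-mutated class held 1 tumor. The block moved no other count of members by more than 1.5 times. DESeq2 called 2 members in p21+/TertCi tumors, 3 in Ctnnb1-mutated and 6 in driver-negative tumors against livers. Of all 15182 genes it called 375, 2126 and 2248 there, beside 0, 1245 and 1230 by edgeR. Without a filter on low counts 5 members and 1171 of 19250 genes were called in driver-negative tumors. With only the tumors compared in the fit, 1 member and 839 of 14768 genes differed between Ctnnb1-mutated and other tumors. Without both NT984 and TCi-HCA984, an alternative chosen after seeing the data, 2 members were called in Ctnnb1-mutated tumors against livers and 1 between Ctnnb1-mutated and other tumors. The causes were not tested.

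Leaving out 1 library at a time gave 3 to 6 members for tumors against livers, 2 to 3 for p21+/Tert tumors, 0 to 2 for Ctnnb1-mutated, 1 to 7 for Egfr- or Hras-mutated and 1 to 5 for driver-negative tumors against livers, and 1 to 2 for Ctnnb1-mutated against other tumors. The count was 0 throughout for p21+/TertCi tumors, for the genotypes' difference, for livers by genotype and for Egfr- or Hras-mutated against driver-negative tumors. Where this left a class with 1 tumor, that tumor was assumed to vary like the other groups. Calls over all genes moved as well, from 863 to 1988 for tumors against livers, beside 1476 with all libraries.

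Shares of counted reads without the 10 most abundant genes had medians of 0.704% in livers and 0.372% in tumors. The lowest member level, 3.11 CPM for Ces2c in NT941, was above the 0.228 CPM that 3 counts make up at most, and each driver class rested on 2 tumors.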
